A study of Homo sapiens with 4 samples.

Results

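The regions described here are the accessible regions that the authors' deposited ATAC-seq table annotates to an exon of a protein-coding transcript. ATAC-seq reads DNA that a transposase can reach, and a region is a stretch where such cuts pile up. All regions whose annotation begins with the word exon were taken, which gave 942 of 58127 regions. They comprised 538 of the 33913 regions of the common set, 366 of the 21459 regions of the shNC-specific set and 38 of the 2755 regions of the shG8d-specific set. All 942 annotations carried a coding transcript, so the label held. The cells were MCF10A, an established line of human mammary epithelium that does not form tumours, with 2 libraries (lettered A and B) carrying a hairpin against SNHG8d (shG8d), a form of a small nucleolar RNA host gene, and 2 carrying a control hairpin (shNC). The study's title links SNHG8d to linker histone H1 and compaction of chromatin, so the question put to these regions was where accessibility within genes differed. Nothing in the labels says whether the libraries of a group were separate cultures, so the p-values speak of the variation among these 4 libraries alone, and it may be technical.

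The group labels contradict each other within the table. Each library can be recognised by what 1 read is worth in its normalized counts, and this value recurred in all 3 sets under exchanged labels. A read is worth 0.842 and 0.807 normalized counts in the deeper pair, which bears the shG8d label in the common set and the shNC label in both specific sets. It is worth 1.21 and 1.17 in the shallower pair, whose labels are the reverse. Which labels are right cannot be told apart from the table. Differences are therefore deeper minus shallower pair, and none is read as an effect of the hairpin. Reads in regions numbered 8124488 and 8111839 for the deeper libraries, against 4457248 and 4344212 for the shallower ones. The median coding-exon region had 75 and 81 deeper-library reads, against 54 and 49 shallower-library reads. No region fell below 3 reads in any library, a count that corresponds to between 2.42 and 3.62 normalized counts and covers counting error only. Markers of basal mammary cells had a region within 1000 bp of their start for 7 of 8 genes, with summed levels of 1177 and 1065 normalized counts in the deeper pair, against 993 and 984 in the shallower pair, and TP63 had none. Luminal markers had a region for 2 of 5 genes, with sums of 285 and 311 in the deeper pair, against 289 and 187 in the shallower pair. Blood, hepatocyte and fibroblast markers had none within that distance. Of 2 neuronal markers SYT1 had one, at 73.2 and 49.2 in the deeper pair, against 89.4 and 59.8 in the shallower pair. Coding-exon regions lay in GATA3 (luminal), SPI1 (blood) and PDGFRB (fibroblast), 1 in each, and in none of the basal markers. The part of these markers in the results was not tested.

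Coding exons are a small share of the genome and usually lie under nucleosomes. The opening exon of a gene begins at the transcription start, so accessible DNA there is most often the downstream flank of the promoter. Exons further inside a gene can also be accessible, and some are known to act as enhancers or to hold start sites of shorter transcripts. Linker histones such as H1 bind where DNA enters and leaves the nucleosome and favour compaction.

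The positions divided the regions into those near a start and those deep inside genes. In all, 424 regions lay in exon 1 of a transcript with several exons, 395 in an internal exon, 86 in the last exon and 37 in the only exon of a gene. The distance to the nearest annotated transcription start ranged from 102 to 512188 bp with a median of 878 bp. It was at most 500 bp for 401 regions, up to 1000 bp for another 86, up to 5000 bp for 119, up to 20000 bp for 164, up to 100000 bp for 142 and larger for 30. No region lay within 100 bp of a start, and the smallest distances were 102 bp downstream and 1126 bp upstream. Regions close to a start are annotated as promoter instead (9614 regions, median distance 85 bp). These limits therefore reflect the annotation and are no result on accessibility. Of the exon 1 regions, 417 lay within 1000 bp. The regions nearest to a start were those in exon 1 of OSTM1 (a lysosomal and osteoclast protein), BLOC1S5 (a subunit of a complex for lysosome-related organelles) and UNC119B (a lipid-binding trafficking protein), each at 102 bp. The farthest lay in SORCS1, a sorting receptor of neurons, at 512188 and 437388 bp, and in LAMA2, a laminin chain of muscle basement membrane, at 356984 bp.

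**Figure D1:**
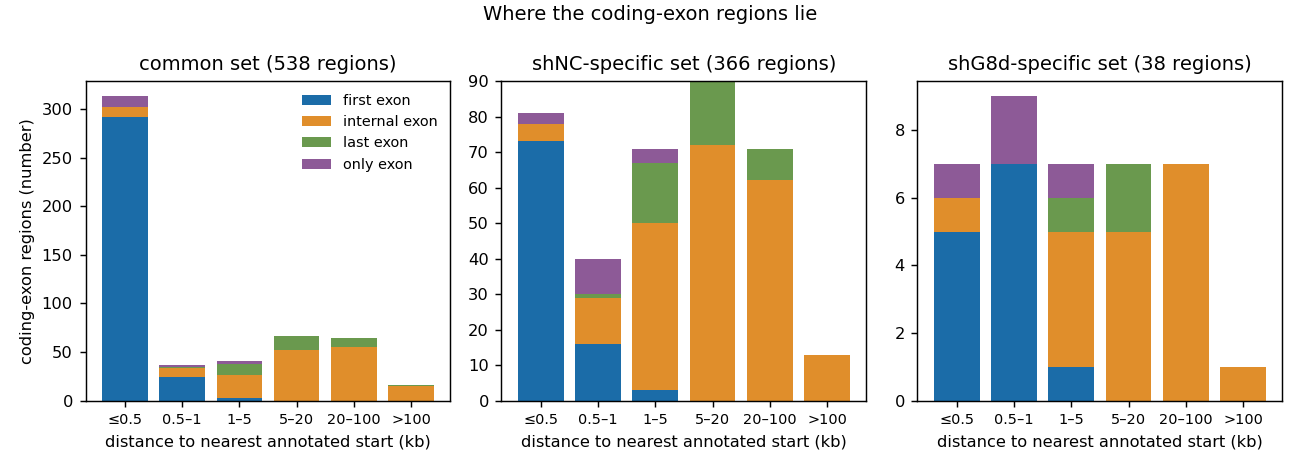
Number of coding-exon regions (vertical axis) by distance to the nearest annotated start in kb (horizontal axis), coloured by position of the exon in the transcript, for the common, shNC-specific and shG8d-specific sets. Exon 1 makes up most regions near a start, and internal exons most regions beyond 1 kb, where 245 of the 366 shNC-specific and 188 of the 538 common regions lie.

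The 3 sets differed in this make-up. Exon 1 held 319 of the 538 common regions, 92 of the 366 shNC-specific regions and 13 of the 38 shG8d-specific regions. Internal exons held 165, 212 and 18 of them in the same order. The median level over the 4 libraries was 90.1 normalized counts in common coding-exon regions, 41.4 in shNC-specific and 39.0 in shG8d-specific ones, against 81.5, 35.6 and 34.9 for all regions of each set.

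The table names each region by the gene with the nearest start, and this was often not the gene whose exon holds the region. Of 936 regions with both names, 193 (20.6%) lay in an exon of one gene and nearest the start of another. Beyond 1000 bp this was so for 185 of 450 (41.1%). The region in exon 6 of ATN1 is listed under C12orf57, that in exon 6 of NFIC, a nuclear factor I protein, under SMIM24, and that in exon 7 of NECTIN4, an adherens junction protein, under ARHGAP30. Names below are those of the gene whose exon holds the region. The transcript in the annotation gave this name through RefSeq for 927 regions, the table alone gave it for 10, and 5 had none. The regions fell in 898 genes, of which 37 held 2 regions and 1 held 3.

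Because exon 1 regions sit beside promoters, the DNA just upstream is shown for common-set exon 1 regions, 2 of the largest difference in each direction. Of the coding-exon regions within 1000 bp of the start of their own gene and in its exon 1 or only exon, 440 in number, 352 could be matched to a promoter sequence from RefSeq (GRCh38.p14). The 4 printed are 250 bases upstream of the start, 5′ to 3′ on the gene's strand, for MYO5C and CYP2R1, whose exon 1 regions were higher in the deeper pair, and for ZFP64 and SBDS, whose exon 1 regions were lower. Capitals mark matches, on either strand, to CCAAT, the ETS core CCGGAA, the GC box GGGCGG, the AP-1 site TGANTCA, the TATA box TATAAA and the NRF1 half-site TGCGCA.
MYO5C, chr15:52295805-52296054, minus strand: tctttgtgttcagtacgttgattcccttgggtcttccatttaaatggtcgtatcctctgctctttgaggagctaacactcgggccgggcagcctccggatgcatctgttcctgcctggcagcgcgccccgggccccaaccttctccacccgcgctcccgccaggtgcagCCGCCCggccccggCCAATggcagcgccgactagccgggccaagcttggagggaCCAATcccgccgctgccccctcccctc
CYP2R1, chr11:14891672-14891921, minus strand: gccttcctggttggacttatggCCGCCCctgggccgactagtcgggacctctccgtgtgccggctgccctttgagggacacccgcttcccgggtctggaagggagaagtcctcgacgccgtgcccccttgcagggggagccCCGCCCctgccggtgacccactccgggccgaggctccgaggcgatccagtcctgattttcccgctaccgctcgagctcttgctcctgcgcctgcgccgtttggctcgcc
ZFP64, chr20:52191780-52192029, minus strand: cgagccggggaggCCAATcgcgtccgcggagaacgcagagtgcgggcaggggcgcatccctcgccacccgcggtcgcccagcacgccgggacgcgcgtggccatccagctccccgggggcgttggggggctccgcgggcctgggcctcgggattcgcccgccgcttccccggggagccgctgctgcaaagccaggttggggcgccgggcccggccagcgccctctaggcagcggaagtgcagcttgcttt
SBDS, chr7:66995587-66995836, minus strand: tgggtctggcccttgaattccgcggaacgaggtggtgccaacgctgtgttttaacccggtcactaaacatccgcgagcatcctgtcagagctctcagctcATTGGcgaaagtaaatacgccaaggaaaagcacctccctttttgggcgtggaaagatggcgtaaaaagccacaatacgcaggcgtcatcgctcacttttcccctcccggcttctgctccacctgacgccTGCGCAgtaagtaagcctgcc

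The MYO5C sequence held 2 CCAAT matches and 1 GC box, and the CYP2R1 sequence 2 GC boxes. The ZFP64 sequence held 1 CCAAT match, with a GC content of 76.4%, and the SBDS sequence 1 CCAAT match and 1 NRF1 half-site, with a GC content of 55.2%. Counted over 300 bases from 250 before to 50 after the start, the 352 promoters had a median GC content of 64.0% and 25 CpG, against 58.3% and 14 for all 27305 promoters in the reference and 65.7% and 27 for the 7099 genes with a region annotated as promoter. The ETS core occurred in 34.9% of the 352, against 29.5% of genes with a promoter region and 17.6% of all promoters. The GC box occurred in 70.7%, against 71.6% and 44.6%, CCAAT in 36.9%, against 38.6% and 35.7%, and the NRF1 half-site in 14.2%, against 13.4% and 8.42%. AP-1 sites occurred in 4.26%, against 5.51% and 7.76%, and TATA boxes in 5.97%, against 5.44% and 12.0%. Promoters of the 46 genes whose exon 1 region was higher in the deeper pair had a median GC content of 67.2%, those of the 39 lower ones 60.0% and those of the other 267 had 64.0%. These medians pool the sets. In the common set they were 65.3% for 28 higher, 60.0% for 31 lower and 63.8% for 206 not called. In the shNC-specific set they were 68.8% for 18 higher and 64.0% for 57 not called. A match is a run of letters and not a measured binding site.

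In the common set, where the deeper pair is labelled shG8d, coding-exon regions moved both ways in equal number. At an adjusted p under 0.05 (limma over all regions, Benjamini-Hochberg), 66 of 538 (12.3%) were higher and 66 (12.3%) were lower in the deeper pair. Over all common regions 10.7% were higher and 15.0% lower. Equal shares were not particular to coding exons, as 13.8% of common 5′ UTR regions were higher and 13.8% lower. The shares were 19.9% and 11.7% for common promoter regions and 8.44% and 16.1% for common intron regions. The median log2 difference was -0.01 for coding exons and -0.12 for all common regions. The called regions at least 2-fold apart numbered 24 higher and 20 lower of the 538. Over all 33913 common regions they numbered 1083 higher and 1894 lower. The number higher was 34 without deeper library A, 26 without deeper library B and 118 without shallower library A, and the number lower was 20 without deeper library A and 31 without deeper library B. With the libraries scaled to equal totals it was 30 higher and 160 lower, and the median over all 58127 regions was then -0.36, against -0.02 as reported.

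**Figure D2:**
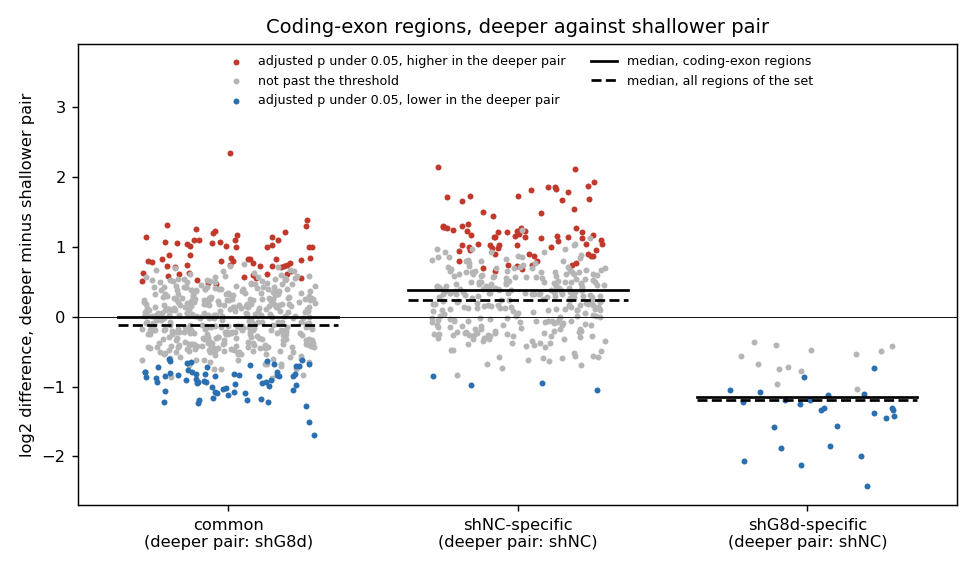
Log2 difference of each coding-exon region, deeper minus shallower pair (vertical axis), in the 3 sets, with the label of the deeper pair under each set. Red and blue points pass an adjusted p of 0.05, solid lines are medians of coding-exon regions and dashed lines medians of all regions of the set (-0.01 and -0.12 common, 0.38 and 0.24 shNC-specific, -1.15 and -1.20 shG8d-specific).

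Among common regions in exon 1 that were higher, MYO5C and CYP2R1 had the largest differences. Regions named by size of difference were taken only where the libraries of the pairs do not overlap, so that separation comes from the choice and is no result. The exon 1 region of MYO5C, a myosin motor of secretory epithelia, had 126 and 102 normalized counts in the deeper pair, against 50.7 and 43.4 in the shallower pair, a log2 difference of 1.26 ± 0.24 (SE, adjusted p = 0.00148). The exon 1 region of CYP2R1, a vitamin D hydroxylase of the liver, had 189 and 213 in the deeper pair, against 90.6 and 79.7 in the shallower pair (1.23 ± 0.20, adjusted p = 0.000348). The exon 1 region of TARS3, a threonyl-tRNA synthetase, had 124 and 137 in the deeper pair, against 67.6 and 45.7 in the shallower pair, a log2 difference of 1.21.

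The common exon 1 regions that were lower were led by ZFP64, SBDS and NT5E. At ZFP64, a zinc finger transcription factor, the exon 1 region had 92.6 and 71.8 normalized counts in the deeper pair, against 191 and 285 in the shallower pair, a log2 difference of -1.50 ± 0.22 (adjusted p = 0.000155). At NT5E, the surface enzyme CD73 that makes adenosine, it had 92.6 and 90.4 in the deeper pair, against 178 and 261 in the shallower pair (-1.23 ± 0.21, adjusted p = 0.00058). At SBDS, a ribosome maturation factor, it had 97.6 and 136 in the deeper pair, against 215 and 366 in the shallower pair, a log2 difference of -1.27. The shallower libraries lay farther apart than the deeper ones at all 3 genes. SBDS has a closely similar pseudogene copy, so its count is uncertain.

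Deep inside genes, the called common regions lay in genes of several kinds. Exon 6 of ATN1, a transcriptional corepressor, had 155 and 138 normalized counts in the deeper pair, against 62.8 and 49.2 in the shallower pair (log2 difference 1.38 ± 0.22, adjusted p = 0.000415). Exon 3 of ACE, the angiotensin-converting enzyme, had 96.8 and 103 in the deeper pair, against 43.5 and 36.3 in the shallower pair (1.31 ± 0.25, adjusted p = 0.00154). Exon 6 of CAMK2D, a subunit of a calcium-activated kinase, lies 214253 bp from the nearest start. It had 140 and 115 in the deeper pair, against 48.3 and 53.9 in the shallower pair, a log2 difference of 1.29. An exon 13 of a transcript without a symbol, whose nearest start is that of KCP, differed by 1.20.

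The last exon of PRSS54, a protease-like protein without known catalytic activity, had the lowest log2 difference of the common coding-exon regions. It had 75.7 and 71.0 normalized counts in the deeper pair, against 185 and 308 in the shallower pair (-1.69 ± 0.22, adjusted p = 6.61e-05). Exon 14 of CDC27, a subunit of the anaphase-promoting complex, had 75.7 and 66.2 in the deeper pair, against 156 and 172 in the shallower pair (-1.20 ± 0.21, adjusted p = 0.000675), and its reads are uncertain because the gene has near-identical copies. The last exons of MGARP, a mitochondrial protein, and EVI2A, a membrane protein gene inside an intron of NF1, differed by -1.24 and -1.22, and exon 17 of SUCO, a protein of bone formation, by -1.19. MGARP and EVI2A no longer passed without deeper library A. These lower regions lay in an internal or last exon between 3256 bp (EVI2A) and 55826 bp (SUCO) from the nearest start.

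**Figure D3:**
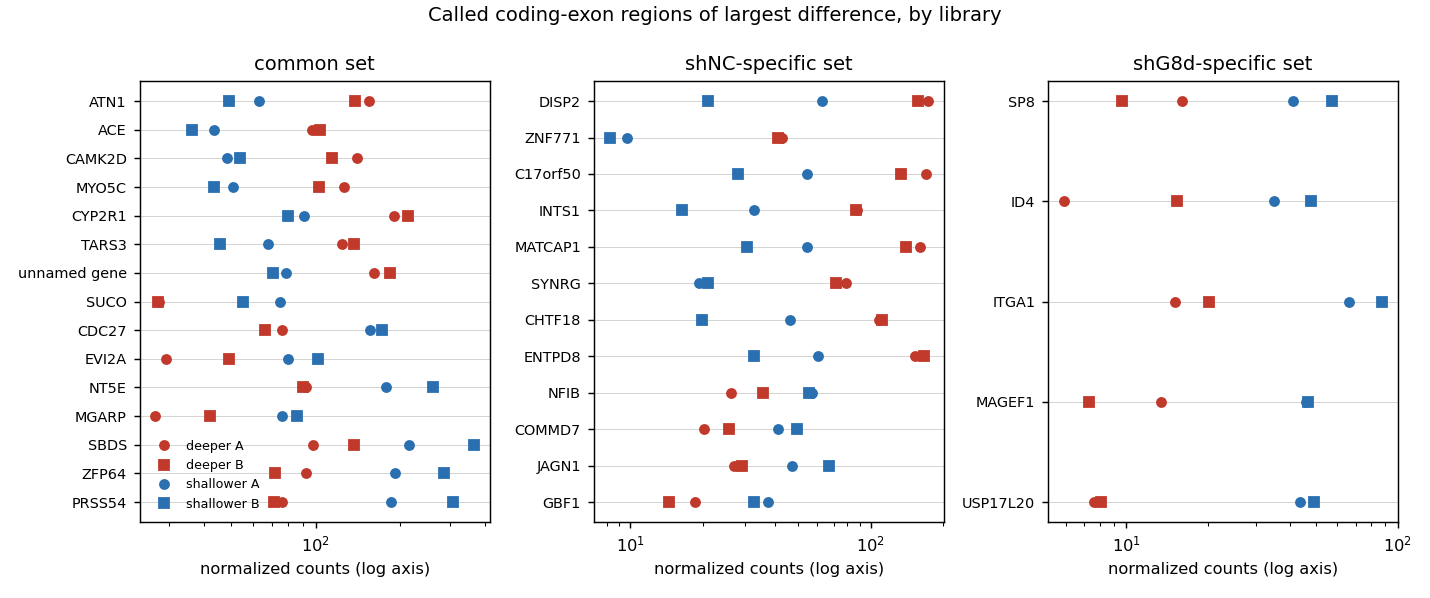
Normalized counts (log axis) of each library, deeper pair in red and shallower pair in blue, for the called coding-exon regions of largest log2 difference in the common, shNC-specific and shG8d-specific sets, with MTRNR2L9 left out for its scale. The regions were chosen without overlap of the pairs, so the separation in each row is a condition of the choice, and the plot shows its size and the spread within a pair, as at PRSS54, with 75.7 and 71.0 in the deeper pair, against 185 and 308 in the shallower pair.

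The region of highest level lay in the only exon of MTRNR2L9 on chromosome 6, and it stood far apart from the rest. It had 28001 and 24223 normalized counts in the deeper pair, against 6946 and 3815 in the shallower pair, a log2 difference of 2.34 ± 0.28 (adjusted p = 2.36e-05). Its mean was 47.5 times that of the next coding-exon region, and it took 27.8% and 24.1% of all coding-exon reads in the deeper pair, against 8.84% and 5.38% in the shallower pair. MTRNR2L genes resemble the mitochondrial gene for the large ribosomal RNA, so their reads cannot be assigned with certainty between copies. The table held 13 regions at MTRNR2L genes, all with the higher mean in the deeper pair, with folds of 1.02 to 6.45. At an adjusted p under 0.05 (limma) 11 were called higher and 0 lower, against 11.1% and 12.4% of all 58127 regions. The part of mitochondrial DNA in these values was not tested.

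Next in level came exon 1 regions with small differences. PSAT1, an enzyme of serine synthesis, had 379 and 394 normalized counts in the deeper pair, against 278 and 275 in the shallower pair (log2 difference 0.48, adjusted p = 0.0347). LTN1, a ubiquitin ligase of ribosome quality control, had 284 and 323 in the deeper pair, against 220 and 217 in the shallower pair (0.47, adjusted p = 0.0472). PHPT1, a phosphohistidine phosphatase, had 318 and 311 in the deeper pair, against 262 and 186 in the shallower pair (0.51, adjusted p = 0.0496). These 3 calls were lost without either deeper library and with equal library totals, and that of PHPT1 also without shallower library B. LYRM7, an assembly factor of respiratory complex III, had 311 and 287 in the deeper pair, against 323 and 348 in the shallower pair and did not pass (-0.17, adjusted p = 0.489), but passed at -0.52 with equal totals.

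In the shNC-specific set, where the deeper pair is labelled shNC, coding-exon regions were mostly higher in the deeper pair. At an adjusted p under 0.05, 77 of 366 (21.0%) were higher and 4 (1.09%) were lower. Over all shNC-specific regions 13.2% were higher and 0.979% lower. The median log2 difference was 0.38 for coding exons and 0.24 for all regions of the set. How the authors chose the regions of a specific set is not given in the sources used here, and if they used a difference between the same libraries, the direction within the set follows from that choice. The number higher was 23 without deeper library A, 29 without deeper library B, 116 without shallower library A and 32 with equal library totals, and the number lower was between 0 and 9 when a library was left out.

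The 8 regions with the largest differences among those higher all lay beyond exon 1. The last exon of DISP2, a membrane protein related to the Hedgehog exporter Dispatched, had 173 and 157 normalized counts in the deeper pair, against 62.8 and 21.1 in the shallower pair (log2 difference 2.15 ± 0.34, adjusted p = 0.000302), and 1.38 without shallower library B. The last exon of the zinc finger gene ZNF771 had 42.9 and 41.2 in the deeper pair, against 9.66 and 8.20 in the shallower pair (2.12 ± 0.40, adjusted p = 0.00143), and did not pass without either deeper library. Exon 2 of C17orf50 had 170 and 134 in the deeper pair, against 54.4 and 28.1 in the shallower pair (1.92 ± 0.28, adjusted p = 0.000157). Of the 3, the shallower libraries differed from each other most at DISP2.

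Exon 41 of INTS1, a scaffold subunit of the Integrator complex that cleaves nascent RNA, had 87.5 and 87.2 normalized counts in the deeper pair, against 32.6 and 16.4 in the shallower pair, a log2 difference of 1.87. Exon 9 of SYNRG, a partner of the clathrin adaptor AP-1 complex, had 79.1 and 71.8 in the deeper pair, against 19.3 and 21.1 in the shallower pair, a difference of 1.85. The other regions named by size of difference were exon 5 of MATCAP1, a tubulin carboxypeptidase (1.85), exon 17 of CHTF18, a component of an alternative clamp loader of replication (1.82), and exon 7 of ENTPD8, an enzyme that hydrolyses extracellular nucleotides (1.81). Their nearest starts belonged to another gene for INTS1, MATCAP1, CHTF18 and ZNF771.

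The 4 regions lower in the deeper pair had adjusted p close to the threshold. Exon 22 of GBF1, an exchange factor of the Golgi, had 18.5 and 14.5 normalized counts in the deeper pair, against 37.5 and 32.8 in the shallower pair (-1.05 ± 0.38, adjusted p = 0.0499). The exon 1 regions of JAGN1, an endoplasmic reticulum protein, and COMMD7 differed by -0.98 and -0.95, and exon 2 of NFIB, a nuclear factor I protein, by -0.86, with adjusted p of 0.0305, 0.0492 and 0.0494. All 4 calls were lost without either deeper library, those of GBF1 and NFIB also without shallower library A, and those of JAGN1, COMMD7 and NFIB also without shallower library B. GBF1 also missed the threshold with a pseudocount of 0.5 or a filter of 30 normalized counts.

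By level the set was led by exon 4 of STMN3, a microtubule-destabilising protein of neurons, with 151 and 172 normalized counts in the deeper pair, against 110 and 70.3 in the shallower pair (0.87 ± 0.22, adjusted p = 0.00964), which did not pass without deeper library B or with equal totals. Exon 11 of SRCIN1, an inhibitor of Src kinase, had 159 and 174 in the deeper pair, against 87.0 and 64.4 in the shallower pair (1.14 ± 0.21, adjusted p = 0.00123). Exon 2 of PRICKLE3, of the planar polarity family, had 143 and 157 in the deeper pair, against 90.6 and 51.6 in the shallower pair, a difference of 1.12, and of 0.72 without shallower library B. Exon 3 of MROH6 differed by 0.66 and lost its call without either deeper library and with equal totals. Exon 2 of TMEM141, a membrane protein, had 114 and 120 in the deeper pair, against 123 and 87.9 in the shallower pair, groups that overlap (0.17, adjusted p = 0.616).

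In the shG8d-specific set, where the deeper pair is again labelled shNC, all 38 coding-exon regions had a log2 difference below 0. Of them 25 (65.8%) were lower at an adjusted p under 0.05, against 70.0% of all regions of the set, and 0 were higher, against 0.0363%. The median log2 difference was -1.15 for coding exons and -1.20 for the set. Without deeper library A the number lower was 11. Coding exons thus had a share called near that of their set.

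The regions named by size of difference lay in 5 genes. Exon 15 of ITGA1, the alpha chain of a collagen-binding integrin, lies nearest the start of ITGA2. It had 15.1 and 20.2 normalized counts in the deeper pair, against 66.4 and 87.9 in the shallower pair (log2 difference -2.07 ± 0.33, adjusted p = 0.000332). Exon 3 of ITGA1 held a common region with 87.5 and 69.4 in the deeper pair, against 74.9 and 111 in the shallower pair, which did not pass (-0.23, adjusted p = 0.537). At ID4, an inhibitor of basic helix-loop-helix factors, exon 2 had 5.89 and 15.3 in the deeper pair, against 35.0 and 48.0 in the shallower pair (-1.99 ± 0.45, adjusted p = 0.00456), and the call was lost without deeper library A. In SP8, a zinc finger factor of limb and brain development, exon 2 had 16.0 and 9.68 in the deeper pair, against 41.1 and 57.4 in the shallower pair, a difference of -1.88. An shNC-specific region in the same exon had 37.0 and 29.1 in the deeper pair, against 45.9 and 38.7 in the shallower pair, and did not pass (-0.35, adjusted p = 0.454). The only exon of MAGEF1 had 13.5 and 7.26 in the deeper pair, against 45.9 and 46.9 in the shallower pair, a difference of -2.12. USP17L20, a member of a multicopy deubiquitinase family, had 7.57 and 8.07 in the deeper pair, against 43.5 and 49.2 in the shallower pair (-2.42), and its reads are uncertain between copies.

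By level the set was led by LMNB1, H1-5 and RPS6KA4. The exon 1 region of LMNB1, encoding lamin B1 of the nuclear envelope, had 51.3 and 57.3 normalized counts in the deeper pair, against 104 and 79.7 in the shallower pair (-0.74 ± 0.25, adjusted p = 0.037), and its call was lost on leaving out any of deeper A, deeper B or shallower A. The only exon of H1-5, a linker histone gene, had 37.9 and 70.2 in the deeper pair, against 72.5 and 94.9 in the shallower pair. It did not pass (-0.67 ± 0.29, adjusted p = 0.0967), but passed without deeper library B at -1.11, without shallower library A at -0.87 and with equal totals at -1.02. Exon 3 of RPS6KA4, a kinase of histone H3, had 41.2 and 42.0 in the deeper pair, against 74.9 and 101 in the shallower pair, a difference of -1.04 that did not pass without deeper library A. The exon 1 regions of SIX4, a homeobox factor, and MRC2, a collagen uptake receptor, differed by -1.30 and -1.58. SIX4 did not pass without deeper library B.

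Exon position and distance were then compared within sets. In the common set 36 of 319 exon 1 regions were higher and 37 lower, against 27 and 19 of 165 internal exons, 2 and 5 of 38 last exons and 1 and 5 of 16 only exons. The higher shares were 11.3% in exon 1 and 16.4% in internal exons, and the difference between positions was not tested. In the shNC-specific set 21 of 92 exon 1 regions, 43 of 212 internal, 9 of 45 last and 4 of 17 only exons were higher.

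Introns beyond 1000 bp served as a comparison, though they lay farther out. The median distance was 15989 bp for exons and 27730 bp for introns in the common set, and 11347 and 22605 bp in the shNC-specific set. Beyond 1000 bp in the common set, 14.9% of 188 coding-exon regions were higher and 13.8% lower, against 8.54% and 16.0% of 12000 intron regions, with median log2 differences of -0.07 and -0.17. In the shNC-specific set 20.8% of 245 coding-exon regions were higher, against 10.3% of 8543 intron regions, with medians of 0.39 and 0.20. In the shG8d-specific set 63.6% of 22 coding-exon regions were lower, against 70.2% of 1092 intron regions, with medians of -1.23 and -1.21. The gap between the exon and intron medians stayed above 0 under all alternatives in the common and shNC-specific sets, between 0.10 and 0.19 in the common set and 0.13 and 0.22 in the shNC-specific set. A median above that of introns was not particular to coding exons. The 3′ UTR regions, taken at all distances, had medians of -0.07 in the common and 0.30 in the shNC-specific set. Their median distances were 13499 and 12253 bp, and 8.67% and 13.6% of them were higher. Regions are not independent samples and share the same 4 libraries, so these shares are a description and no p is given. By distance, the common exon median was -0.15 from 1000 to 5000 bp, 0.00 up to 20000 bp, -0.04 up to 100000 bp and 0.01 farther away, against -0.14, -0.14, -0.18 and -0.24 for introns, so exons were not above introns in the nearest of these bands. The shNC-specific exon median was 0.42 from 1000 to 5000 bp, 0.49 up to 20000 bp, 0.24 up to 100000 bp and -0.06 for the 13 regions farther away. The intron medians at these distances were 0.26, 0.22, 0.16 and 0.20. Within 500 bp promoters were the class of highest median, with 0.53 against 0.42 for exons and 0.36 for introns.

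**Figure D4:**
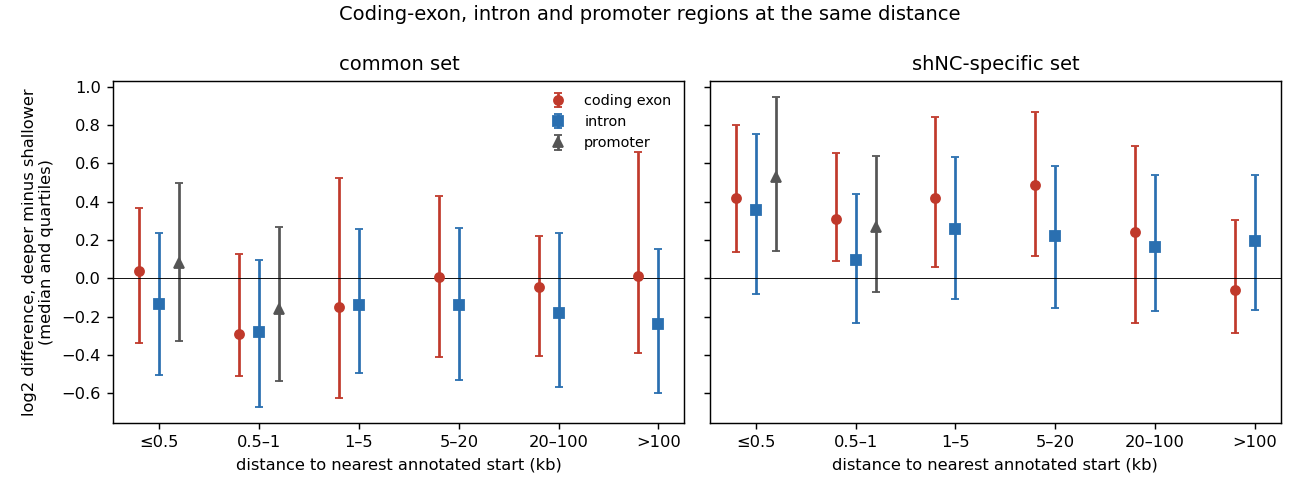
Median log2 difference with quartiles (bars), deeper minus shallower pair, of coding-exon, intron and promoter regions by distance to the nearest annotated start in kb, for the common and shNC-specific sets; groups under 10 regions are not drawn. Exon medians lie above intron medians at most distances, with exceptions at 0.5 to 1 kb and 1 to 5 kb in the common set and beyond 100 kb in the shNC-specific set.

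The share of shNC-specific calls was not the same on all chromosomes, a difference that was not tested. The chromosomes given here are examples taken by no rule, and their counts are small. Others also lay high or low, as chromosome 20 with 4 of 11 higher and a median of 0.68, and chromosome 11 with 2 of 22 and 0.16. On chromosome 19, 8 of 23 coding-exon regions were higher and the median log2 difference was 0.74, and on chromosome 17 it was 7 of 19 with a median of 0.64. Among all shNC-specific regions of these chromosomes 19.8% and 18.7% were higher, above the 13.2% of the whole set. On chromosome 4, 1 of 15 coding-exon regions was higher with a median of 0.33, against 11.4% of all regions. On chromosome 9, 5 of 23 were higher with a median of -0.07, against 11.4% of all regions with a median of 0.09.

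Regions deep in a gene were set beside the region at the start of the same gene, which was the region of highest mean annotated to its promoter or within 1000 bp of its start. Of 451 coding-exon regions beyond 1000 bp in a named gene, 249 had such a start region and 202 (44.8%), in 192 genes, had none. The exon region had the lower level in 192 of the 249, with a median level ratio of 0.557 of exon over start. The log2 differences of exon and start were almost uncorrelated over the 249, with Pearson r of 0.02 and Spearman rho of 0.04, all measured in the same 4 libraries. By set of the exon region, Pearson r was -0.02 for 100 common, 0.07 for 141 shNC-specific and 0.22 for 8 shG8d-specific regions. The counts that follow pool the 3 sets. In a specific set the direction of the exon region may follow from how the set was chosen. Of 43 start regions whose exon region was higher, 9 were higher and 6 lower, and of 20 whose exon region was lower, 4 were higher and 3 lower. Over all 249, 24.1% of start regions were higher and 13.7% lower.

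**Figure D5:**
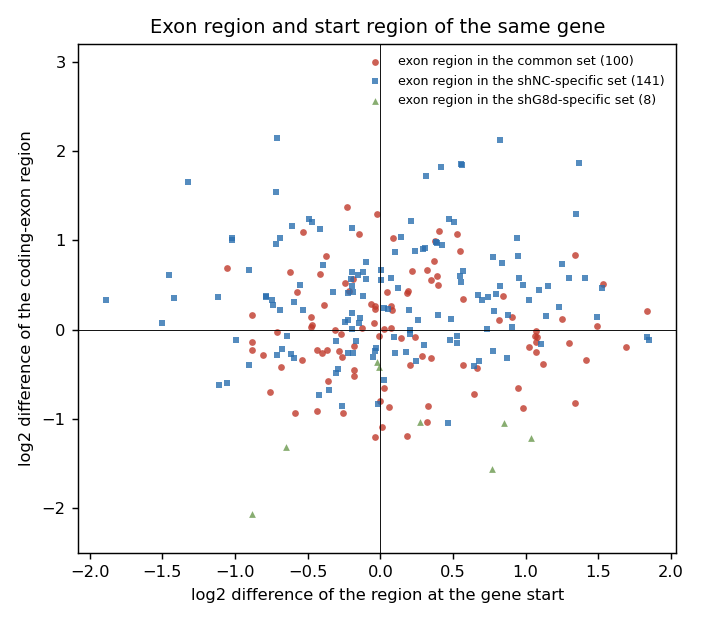
Log2 difference, deeper minus shallower pair, of the coding-exon region (vertical axis) and of the region at the start of the same gene (horizontal axis), for 249 coding-exon regions beyond 1 kb, coloured by the set of the exon region. The points spread without a slope, with Pearson r of 0.02.

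Some genes, chosen after their values were seen, show the range. Exon 13 of DBN1, an actin-binding protein, was higher with 175 and 157 normalized counts in the deeper pair, against 54.4 and 49.2 in the shallower pair (log2 difference 1.66, adjusted p = 5.48e-05), while its start region was lower at -1.32. Both exon regions of PRPF40B, a splicing factor, were higher, the larger at 1.02, and its start region was lower at -1.02. The last exon of IL6, the inflammatory cytokine, was higher at 1.02 and its start region lower at -0.69. Exon 13 of PER3, of the circadian clock, was higher at 1.29 and its start region at 1.35, and INTS1 was higher at both places. TRPM6, a magnesium channel, was lower at exon 15 (-0.70) and at its start (-0.76). Exon 14 of FBXL13 was lower at -1.56 and its start region higher at 0.77. The exon regions of DBN1, PRPF40B, IL6 and INTS1 were shNC-specific. That of FBXL13 was shG8d-specific, a set in which all 38 coding-exon regions lay below 0. The direction of these exon regions may follow from how their set was chosen. The exon calls of PER3, TRPM6 and IL6 were lost without either deeper library (IL6 also without shallower library A), both of PRPF40B and that of FBXL13 without deeper library A, and those of IL6 and PRPF40B also with equal totals.

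Some of the 202 regions whose gene has no start region are given here, again chosen after their values were seen, so they stand for themselves and not for the 202. Exon 4 of AHSG, which encodes the plasma protein fetuin A of the liver, had 140 and 158 normalized counts in the deeper pair, against 73.7 and 72.6 in the shallower pair (log2 difference 1.02, adjusted p = 0.00225). Exon 3 of HRG, another liver plasma protein, had 34.5 and 22.6 in the deeper pair, against 52.0 and 66.8 in the shallower pair (-1.05, adjusted p = 0.0238). Exon 3 of CHGA, the chromogranin of endocrine cells, was higher at 0.55 and exon 7 of MERTK, a receptor kinase of phagocytes, at 0.74. Exons of AFP (fetal liver), TG (thyroid) and RHAG (red blood cells) held shG8d-specific regions that did not pass, at -0.54, -0.57 and -0.72. HRG lost its call without deeper or shallower library B, MERTK without deeper library A, and CHGA without either deeper library or shallower library B, and CHGA and MERTK also lost theirs with equal totals. In the common set, 11 of 85 regions in genes without a start region were higher and 12 lower (median -0.14), against 15 and 13 of 100 with one (median -0.01) and 10.7% and 15.0% of all common regions. In the shNC-specific set 23 of 103 were higher without a start region and 28 of 141 with one, against 13.2% of the whole set. These differences were not tested.

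Genes with several coding-exon regions showed how far neighbours within a gene agreed. In most of them the log2 differences shared a sign, as at CDHR2 and DMBT1. The pairs of ANK2, ATF6 and PRELID3A, given here, had unlike signs and do not stand for all such genes. ANK2, an ankyrin, held a common region in exon 23 with a log2 difference of 0.67 (not called) and one in exon 38 with 72.4 and 71.0 normalized counts in the deeper pair, against 147 and 148 in the shallower pair (-1.03, adjusted p = 0.00203). ATF6, a sensor of endoplasmic reticulum stress, was lower in exon 1 (common set) at -1.12 and not called in exon 16 (shNC-specific set) at 0.37. The exon 1 call was lost without deeper library B. PRELID3A, a lipid transfer protein of mitochondria, had shNC-specific regions in exon 1 and exon 2, 103 bp apart in their distances. Exon 1 was higher at 1.49 (adjusted p = 0.000353) and exon 2 not called at -0.06. RIMBP3B, with 3 regions in its only exon at 0.49, 0.58 and 1.30, has near-identical copies and is uncertain, and the call at 1.30 was lost on leaving out either deeper library or shallower library B and with equal totals.

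Gene families were read from lists drawn up with earlier results of these data known, and few of their genes had a coding-exon region. Zinc finger genes held 14 regions over the pooled sets, with 5 higher, 1 lower and a median of 0.23 for deeper minus shallower. In the common set 2 of 8 were higher and 1 lower (median 0.11). In the shNC-specific set 3 of 6 were higher and 0 lower (median 0.68). Over all common regions 10.7% were higher and 15.0% lower, and over all shNC-specific regions 13.2% and 0.979%. Of all 942 coding-exon regions 15.2% were higher and 10.1% lower with a median of 0.12, and of all 58127 regions 11.1% and 12.4%. In the common set ZNF282 and ZNF286A were higher in exon 1 at 0.80 and 0.55, and ZFP64 was lower. In the shNC-specific set ZNF385A and ZBTB45 were higher in the last exon at 1.69 and 1.04, beside ZNF771. With equal totals 3 were higher, 1 was lower and the median was -0.11. The calls of ZNF282 and ZNF286A were lost without either deeper library and with equal totals, that of ZNF385A without deeper library A and that of ZBTB45 without deeper library B. Solute carriers held 17 regions with 3 higher and 2 lower, and with equal totals 0 higher and 3 lower, counts near the shares of all coding-exon regions. By set, 1 of 9 common regions was higher and 2 lower, and 2 of 6 shNC-specific regions were higher and 0 lower. Neither of the 2 shG8d-specific regions was called. In the shNC-specific set SLC25A43, a mitochondrial carrier, was higher at 1.19 and SLC29A1, a nucleoside transporter, at 0.96. In the common set SLC27A3, of fatty acid uptake, was lower at -1.08 and SLC7A8, an amino acid transporter, at -0.72. Except for SLC27A3, these calls were lost without either deeper library, and that of SLC29A1 also without shallower library B. SLC25A43 and SLC29A1 were not called with equal totals.

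On the list of 51 epithelial junction and identity genes 2 had a region. NECTIN4, which the list lacks, was higher at 1.07 (adjusted p = 0.00147). PKP3, a desmosomal plakophilin, had 261 and 261 normalized counts in the deeper pair, against 298 and 216 in the shallower pair and did not pass (0.04, adjusted p = 0.898). MARVELD3, a tight junction protein, was lower in exon 1 with 34.5 and 36.3 in the deeper pair, against 70.1 and 57.4 in the shallower pair (-0.82, adjusted p = 0.0427). The laminin genes LAMC1 and LAMA3 held 3 regions with none called, at -0.19 and -0.19 in the common set and 0.34 in the shNC-specific set. On the list of 50 TGF-beta, Notch, WNT and Hippo genes 4 had a region. Exon 1 of TGFB1, the growth factor, held an shG8d-specific region that was lower at -0.87 (adjusted p = 0.04). Of all shG8d-specific regions 70.0% were lower, with a median of -1.20. CCN1 and CCN2 (common set) and FZD1 (shNC-specific set) did not pass at -0.59, -0.27 and 0.79. Genes of these pathways outside the list were also called, with the Notch ligand DLL3 higher (64.8 and 65.4 normalized counts in the deeper pair, against 32.6 and 15.2 in the shallower pair, adjusted p = 0.00551) and WNT8B and HES3 lower at -1.33 and -0.91, while SMAD1, MAML1 and MAML3 did not pass. HES3 lost its call without deeper library A or shallower library B, and WNT8B without deeper library A. ARID1B, a subunit of a nucleosome remodelling complex, was lower in exon 8 (common set) with 97.6 and 107 in the deeper pair, against 140 and 186 in the shallower pair (-0.66, adjusted p = 0.0257). Its shNC-specific region in exon 12 was not called at 0.24. The core histone gene H4C11 was lower at -0.79, with 46.3 and 42.8 in the deeper pair, against 82.1 and 73.8 in the shallower pair. Of 4 regions in the homeobox genes listed by symbol, the shG8d-specific region of SIX4 was called. LMX1B, a LIM-homeobox gene outside the list, was higher at 0.89 (adjusted p = 0.0251). FBN2 (0.43), EGF (0.53) and CDK6 (-0.45), the only members of the matrix, growth factor and cell cycle lists with a coding-exon region, did not pass. The calls of MARVELD3, TGFB1, ARID1B and H4C11 were each lost on leaving out either deeper library, those of MARVELD3 and H4C11 also without shallower library A, and those of TGFB1 and ARID1B also without shallower library B. The 34 listed keratin and cornified envelope genes, clustered protocadherins and olfactory receptors had 0 coding-exon regions, but KRT82, a hair keratin outside the list, was higher in exon 7 at 1.15 (adjusted p = 0.0276). KRT82 and LMX1B lost their calls without either deeper library, without shallower library B and with equal totals. NECTIN4, DLL3, WNT8B, HES3, SMAD1, MAML1, MAML3, LMX1B and KRT82 were added after their values were seen, as the lists are not complete families.

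Of the calls, 36 of 132 in the common set, 18 of 81 in the shNC-specific set and 9 of 25 in the shG8d-specific set passed whichever of the 4 libraries was left out. Libraries of a pair were not equally alike. Across coding-exon regions the Pearson correlation between libraries of the deeper pair was 0.936 in the common, 0.849 in the shNC-specific and 0.533 in the shG8d-specific set, against 0.857, 0.543 and 0.818 for the shallower pair. Both libraries of a pair lay on one side of both libraries of the other for 63.4% of common, 58.2% of shNC-specific and 94.7% of shG8d-specific coding-exon regions, against 67.1%, 53.4% and 95.0% of all regions of each set.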

How the data were processed

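ATAC-seq was measured in 4 MCF10A libraries. Per the submitters' processing notes CASAVA 1.4 and the build hg19 were used. For the aligner, peak caller and counter nothing is given in the sources used here. Deposited by the authors were log10 values of normalized counts per region, per the file headers. Raising 10 to each value gave whole multiples of 1 step per library for 100% of values within 0.05 reads, and the 4 steps recurred across the 3 sets to a relative difference of 7.5e-10. Libraries were named deeper and shallower by that step. Limma 3.58.1 (R 4.3.3) was run with a trended variance prior on log2 of the normalized count plus a pseudocount of 1, a scale that understates changes of low regions, over all 58127 regions. Benjamini-Hochberg adjustment and a threshold of 0.05 were used. A filter of 10 normalized counts in at least 2 libraries removed 0 regions. The test was checked on simulated data. Tables were handled in pandas 2.3.3.

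The regions and gene lists were chosen with earlier results of these data known. Named regions were, per set and direction, the 8 called regions of largest difference without overlap of the groups (5 in the shG8d-specific set), the 5 of highest level, the 3 nearest to and 3 farthest from a start, those of genes with 3 regions, and up to 4 per gene list, with 1 gene list not reported here. Region coordinates were not used, so regions are placed by exon and distance. RefSeq (GRCh38.p14) served for names and promoter sequences only. Alternatives were the pseudocount, the filter, equal library totals, a replicate block, each library left out, regions within 1 kb left out and, added after seeing the data, voom on recovered reads.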

Additional observations from a re-analysis of the deposited data

How the results depend on the processing

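With equal library totals the common coding-exon calls were 30 higher and 160 lower with a median log2 difference of -0.36, the shNC-specific calls 32 higher and 14 lower with a median of 0.0401, and the shG8d-specific median was -1.49. The share of coding-exon calls that were higher was then 23.1%, against 60.1% as reported. That setting turned the sign at TMEM141 (-0.18), LAMA2 (-0.0169) and SORCS1 exon 27 (-0.24). Fitted without regions within 1 kb, the common set had 29 calls higher and 28 lower, by fewer regions tested. Leaving out each library in turn gave 26 to 118 higher and 20 to 87 lower in the common set with medians of -0.0634 to 0.0538, 23 to 116 higher and 0 to 9 lower in the shNC-specific set with medians of 0.27 to 0.50, and 11 to 26 lower in the shG8d-specific set with medians of -1.21 to -0.94. It put TMEM141 between -0.0756 and 0.41, UNC119B between -0.67 and 0.65, LAMA2 between -0.0385 and 0.70 and the RIMBP3B region of 0.58 between -0.15 and 1.13, so their signs rest on single libraries. The cause was not tested. With the replicate block (letters A and B) 71 common regions were higher and 76 lower, 89 and 5 in the shNC-specific set, and 25 lower in the shG8d-specific set. Deviations of same-letter libraries correlated at -0.004 over 58127 regions, so no variation shared by letter was seen across regions. That value cannot show whether libraries of the same letter were matched. Voom on recovered reads gave 75 higher and 73 lower, 87 and 4, and 25 lower. The other pseudocounts and filters kept each count of calls within 1.5 times. The planned count tests were not run, because the deposited unit is a log10 value.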
